A study of Ovis aries with 16 samples.

Results

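The insulin-like growth factor (IGF) system in sheep fat was described here through 10 genes: the ligands IGF1 and IGF2, the receptors IGF1R and IGF2R, and the binding proteins IGFBP2, IGFBP3, IGFBP4, IGFBP5, IGFBP6 and IGFBP7. They were chosen by name and not by their values, and all 10 are present among the 28524 genes of the deposited count table. RNA was sequenced from the fat of ewes aged about 21 months, in 16 libraries that form 4 groups of 4: subcutaneous control, subcutaneous BPA, visceral control and visceral BPA. BPA stands for bisphenol A, a plastics chemical with oestrogen-like activity.

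The exposure was prenatal. Mothers of the BPA groups were injected under the skin with 0.5 mg/kg BPA in corn oil each day from day 30 to day 90 of a pregnancy of about 147 days, and control mothers were injected with corn oil alone. No genotype or breed was given. Animals of all 4 groups had been kept on a maintenance diet, and all received 2 injections of 10 mg prostaglandin F2α 11 days apart, with tissue taken 24 hours after the last one. Subcutaneous fat came from the sternum and visceral fat from the mesentery around the rumen, so each depot stands for 1 site. Libraries are named by the number that opens their titles, and 5 numbers (902, 918, 924, 928 and 977) occur in both depots. Unless another order is given, values per library follow the order 902, 924, 928 and 931 in subcutaneous controls, 918, 922, 941 and 977 in subcutaneous BPA, 902, 908, 924 and 928 in visceral controls, and 910, 918, 977 and 984 in visceral BPA.

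IGF1 and IGF2 are secreted peptide hormones. Both signal mainly through IGF1R, a receptor tyrosine kinase that acts through the PI3K-AKT and MAPK pathways, whereas IGF2R, the mannose 6-phosphate receptor, carries IGF2 to lysosomes. The IGFBP proteins hold the ligands in the extracellular space and prolong their life or keep them from the receptor, until proteases such as pappalysin (PAPPA) cut them and set the ligand free. In fat, IGF1 is made locally under growth hormone and acts on preadipocytes, which carry IGF1R, while mature adipocytes respond mainly through the insulin receptor.

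Library totals ran from 3.05 to 6.22 M counts in subcutaneous fat and from 6.77 to 14.3 M in visceral fat, so depth and depot cannot be told apart in the counts as deposited. ADIPOQ, the adipocyte hormone adiponectin, was measured at 3364 to 12769 CPM over the 16 libraries, where CPM is the read count scaled to a fixed library total. In a principal component analysis of 14793 genes, visceral BPA library 977 lay apart on the second component (95.6, the other libraries between -26.5 and 18.9). Subcutaneous controls 902 and 924 lay apart on the third (53.5 and 51.9, the others between -42.3 and 10.6), with subcutaneous BPA library 922 at its other end. The summed CPM of 10 mesothelial markers, genes of the lining that covers visceral fat, was 1.86 to 9.36 in subcutaneous libraries, 60.7 to 133 in visceral controls and 31.7 to 352 in visceral BPA, where library 977 had the highest value. LRRN4 of that list was at 0 counts in each of the 8 subcutaneous libraries. In bulk tissue, fewer cells of a type and less RNA per cell cannot be told apart.

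The genes lie on 8 chromosomes, at positions given as in the deposited table. Its genome build is not named in the sources used here, and chromosome numbers were assigned from the gene names that each sequence record shares with a RefSeq table of assembly ARS-UI_Ramb_v3.0. IGF1 spans chr3:183945231-184028095 on the minus strand and IGFBP6 lies on the same chromosome at chr3:142893627-142897177. IGF2 (chr21:51230091-51254815) starts 682 bases after the end of the insulin gene INS, which had 6 counts in all 16 libraries together. LOC114110120, on the opposite strand, shares 37 exon bases with IGF2 (1.33% of its exon length) and had 575 counts against 24930 for IGF2. IGF1R (chr18:7575639-7879425) and IGF2R (chr8:90923720-91026608) are the longest of the set by span.

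IGFBP2 (chr2:233422726-233452151, plus strand) and IGFBP5 (chr2:233461461-233484486, minus strand) are neighbours that end towards each other across 9309 bases. IGFBP3 (chr4:83695177-83703580) has IGFBP1 as its neighbour, 6670 bases away. IGFBP1, the binding protein made mainly by liver, had 10 counts in all 16 libraries. IGFBP4 lies at chr11:22499236-22509465 and IGFBP7 at chr6:79594350-79674075, with its 3′ end facing that of POLR2B across 161 bases. The pairs of neighbours did not share a level: IGFBP5 was the most abundant of the 10 genes per length and IGFBP2 the least or next to least.

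Levels of different genes were compared as CPM per kilobase of the exon length in the deposited table. That length counts each annotated exon, so a gene expressed mainly from a short form, such as IGF1 with 10550 exon bases, is understated. On this scale IGFBP5 was highest in every group, with group means of 332 in subcutaneous control, 263 in subcutaneous BPA, 262 in visceral control and 286 in visceral BPA. Of 14522 expressed genes of at least 200 bases, 122 had a higher mean over the 16 libraries than IGFBP5, 219 a higher one than IGFBP4 and 395 a higher one than IGFBP7. By contrast, 8788 genes stood above IGF1 and 9065 above IGFBP2.

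**Figure D1:**
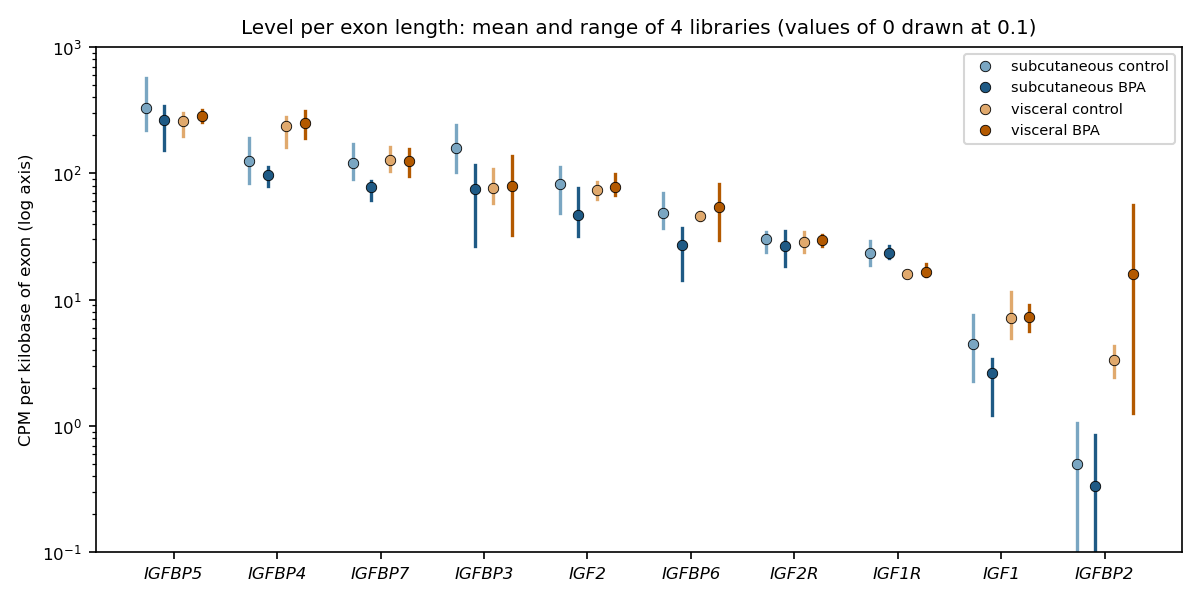
Level of the 10 genes as CPM per kilobase of exon on a log axis; points are means of 4 libraries, bars run from the lowest to the highest library, and values of 0 are drawn at 0.1. IGFBP5 had the highest mean in each group, and means of IGFBP2 ranged from 0.335 in subcutaneous BPA to 16.0 in visceral BPA. Library 977, at 56.2, raised that visceral BPA mean.

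The order below IGFBP5 differed between the depots of control ewes. In subcutaneous control fat it ran IGFBP3 (159), IGFBP4 (125), IGFBP7 (121), IGF2 (83.1), IGFBP6 (48.5), IGF2R (30.5), IGF1R (23.6), IGF1 (4.45) and IGFBP2 (0.500 CPM per kilobase). Neighbours from IGFBP5 down to IGFBP6 had overlapping libraries there, as had IGF2R and IGF1R. In visceral control fat IGFBP4 (238) and IGFBP7 (127) came next after IGFBP5, ahead of IGFBP3 (76.5) and IGF2 (74.0). IGFBP6 (45.6), IGF2R (28.4), IGF1R (16.1), IGF1 (7.22) and IGFBP2 (3.32) followed there, each without overlap with the gene ranked above it.

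By group mean, both BPA groups had the order of visceral control fat, except that IGFBP2 stood above IGF1 in visceral BPA fat. IGFBP3 thus ranked above IGFBP4 in subcutaneous control fat only, where their libraries overlapped. In subcutaneous BPA fat IGFBP5 (263) had no overlap with IGFBP4 (96.9), and the steps from IGFBP4 through IGFBP7 (77.7), IGFBP3 (75.4), IGF2 (47.1), IGFBP6 (27.0) and IGF2R (26.5) to IGF1R (23.6) overlapped. In visceral BPA fat IGFBP4 stood at 252, IGFBP7 at 126, IGFBP3 at 79.6 and IGF2 at 77.3 CPM per kilobase, with every library of IGFBP4 above every library of IGFBP7. IGFBP6 (54.6), IGF2R (29.8), IGF1R (16.7), IGFBP2 (16.0) and IGF1 (7.33) came after them. IGFBP4 made up 13.8% ± 4.99 of the summed level of the 10 genes in subcutaneous control and 26.8% ± 3.68 in visceral control fat (SD, n = 4).

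IGF2 exceeded IGF1 per kilobase in each library. The ratio of IGF2 to IGF1 was 23.7 ± 14.9 in subcutaneous control and 21.5 ± 14.3 in subcutaneous BPA, against 11.1 ± 3.14 in visceral control and 10.7 ± 1.31 in visceral BPA (SD, n = 4). The subcutaneous ratios varied from 9.55 to 39.5 and overlapped the visceral ones, which varied from 7.46 to 14.7. The ratio of IGF2R to IGF1R was 1.34 ± 0.375 and 1.13 ± 0.350 in subcutaneous control and BPA, and 1.77 ± 0.314 and 1.79 ± 0.174 in visceral control and BPA.

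**Figure D2:**
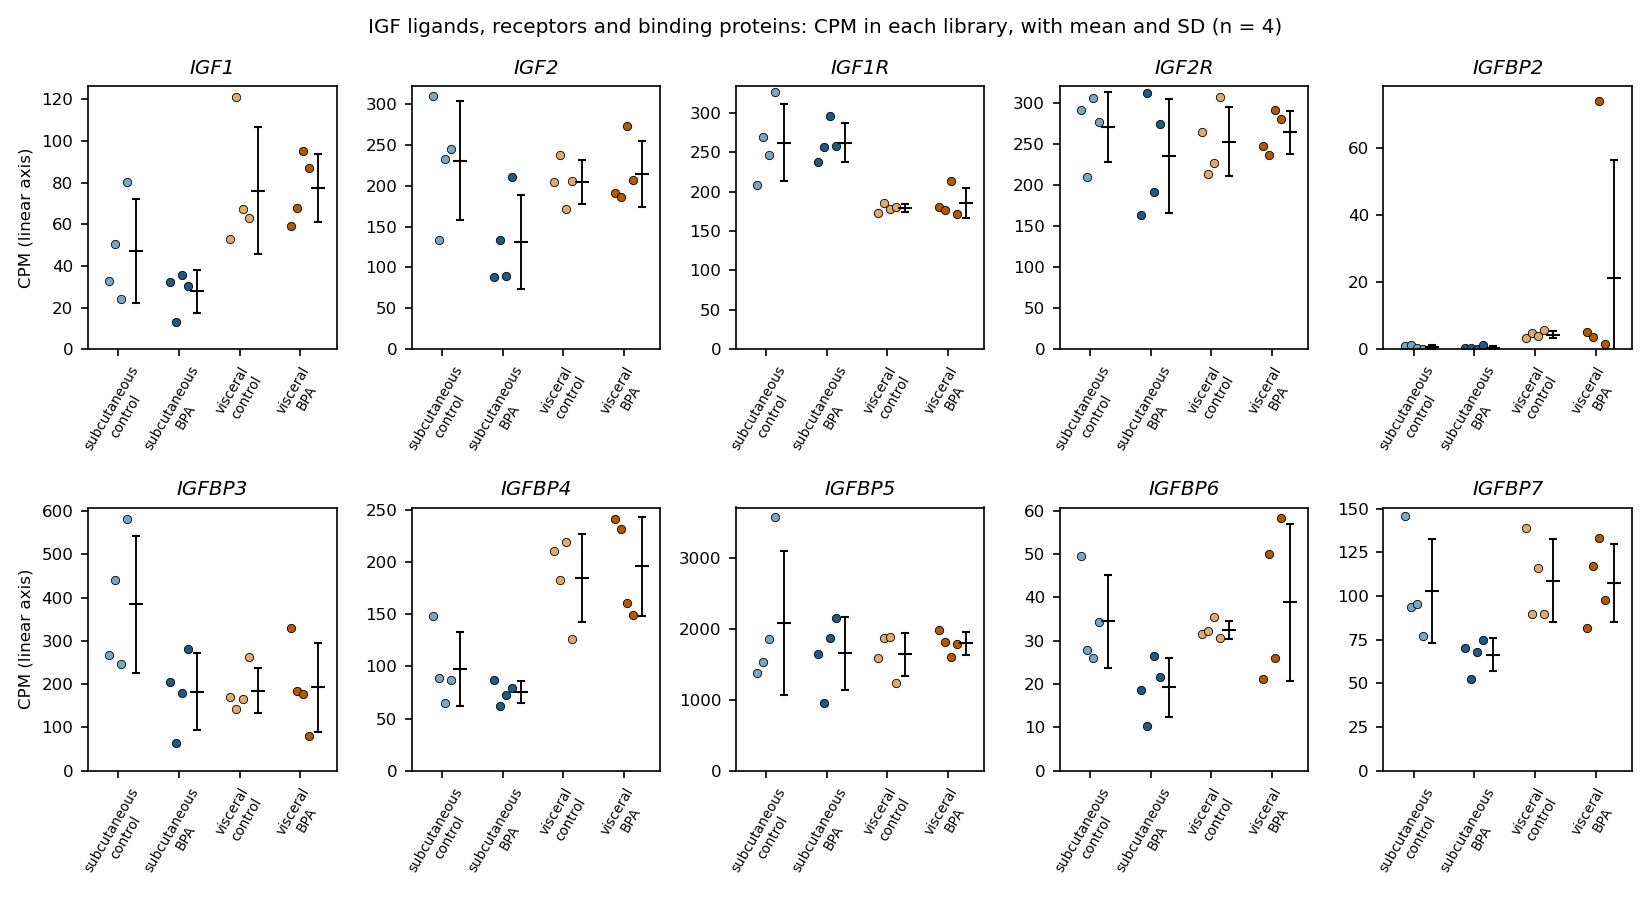
CPM of each gene in each library (points, linear axes from 0) with the mean and SD of the 4 libraries of a group; the SD bar of IGFBP2 in visceral BPA reaches below 0 and is cut at the axis. IGFBP4 was higher in visceral than in subcutaneous fat, IGF1R was lower, and 1 visceral BPA library carried IGFBP2 at 74.0 CPM.

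The first comparison asked how the system differs between the depots of control ewes. IGFBP4 was higher in visceral fat, 1.91-fold, while IGF1R and IGFBP3 were lower, 1.46-fold and 2.06-fold. IGFBP2 met the filter on low counts through its visceral libraries, so a difference was built into its entry and it is described apart. Of the other 9 genes these 3 (33.3%) passed an adjusted p of 0.05 in edgeR's quasi-likelihood test, against 13.3% of all 14456 genes tested (7.17% higher, 6.16% lower). Among those 9, groups did not overlap for IGF1R alone, against 19.9% of all genes. The same 3 genes passed when every library was thinned to the lowest total, an alternative chosen after seeing the data. The median log2 difference of the 9 genes was that of IGF2R, -0.09, and that of all genes was -0.01.

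IGF1, the ligand, was measured in subcutaneous controls at 32.8, 50.7, 23.9 and 80.5 CPM and in visceral controls at 53.0, 121, 67.3 and 63.1 CPM. The groups overlapped through subcutaneous library 931. The log2 difference, visceral minus subcutaneous, came to 0.71 ± 0.36 (SE; adjusted p = 0.212, edgeR), with a 95% interval from -0.08 to 1.50. Without visceral 908 it was 0.39 and without subcutaneous 931 it was 1.11, not called in either. With the title number as a fixed block, which uses the 3 control numbers found in both depots, it was 0.83 and passed (adjusted p = 0.0142, edgeR). Within those pairs IGF1 was higher in visceral fat by 0.69, 0.40 and 1.39 on the log2 scale (CPM plus 0.5).

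IGF2, the fetal growth factor, did not pass. It stood at 310, 134, 232 and 245 CPM in subcutaneous and at 204, 238, 172 and 206 CPM in visceral controls, a log2 difference of -0.16 ± 0.22 with an interval from -0.64 to 0.32. The lowest IGF2 value of the control ewes was in subcutaneous library 924 and the highest in subcutaneous library 902.

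IGF1R, the signalling receptor, was lower in visceral fat. Subcutaneous controls had 208, 269, 246 and 326 CPM, visceral controls 173, 185, 178 and 180 CPM. Every visceral library lay below every subcutaneous one, and the visceral values spread over a far narrower range. With a log2 difference of -0.55 ± 0.15, IGF1R passed (adjusted p = 0.0337, edgeR), and all 3 pairs showed it (-0.27, -0.59 and -0.45). The call was narrow: the fixed block gave -0.43 (adjusted p = 0.0503, edgeR), and omission of any 1 library other than subcutaneous 902 ended it, with differences from -0.57 to -0.41.

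IGF2R, the clearance receptor, did not pass either. Its values were 291, 210, 306 and 277 CPM in subcutaneous and 265, 213, 227 and 307 CPM in visceral controls. They differed by -0.09 ± 0.16 on the log2 scale, with a 95% interval from -0.45 to 0.27.

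IGFBP4, a binding protein that in general holds IGF away from its receptor, was measured at 148, 88.7, 65.3 and 86.9 CPM in subcutaneous and at 211, 183, 219 and 126 CPM in visceral controls. Subcutaneous 902 and visceral 928 overlapped, and the other libraries were apart. IGFBP4 differed by 0.94 ± 0.24 on the log2 scale (adjusted p = 0.0298, edgeR), and the 3 pairs gave 0.52, 1.30 and 0.95. Omission of visceral 902, 908 or 924, or of subcutaneous 924, 928 or 931, ended the call, with differences from 0.79 to 0.94 and adjusted p from 0.0614 to 0.0741 (edgeR).

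IGFBP2, a binding protein prominent in fetal life, was nearly unmeasured in subcutaneous fat. Subcutaneous controls held 6, 8, 2 and 0 counts (0.936, 1.38, 0.314 and 0 CPM), and visceral controls 36, 51, 44 and 69 counts (3.21, 4.83, 3.80 and 5.62 CPM). Groups did not overlap, and each of the 3 pairs had more in visceral fat. The log2 difference was 2.68 ± 0.60, a fitted value that rests on 16 subcutaneous counts in all. Its adjusted p of 0.0158 (edgeR) is given as a description, because 4 visceral libraries and 1 subcutaneous library reached the level that the filter asks for. A count of 0 allows up to 3 counts, or 0.615 CPM, in library 931. Without the filter the difference was 2.70 (adjusted p = 0.0112, edgeR), against 2.67 (adjusted p = 0.131) in 1 edgeR fit of all 16 libraries and 2.98 (adjusted p = 0.231) in limma voom with the replicate block.

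The mesothelial markers moved with IGFBP2 between depots. Of 10 such genes 7 could be tested in control ewes, and 6 of them (UPK3B, LRRN4, KRT8, KRT19, WT1 and BNC1) were higher in visceral fat. UPK3B, LRRN4, KRT19, WT1 and BNC1 met the filter through their visceral libraries, with LRRN4 at 0 in subcutaneous fat. A difference was thus built into their entry, and their calls are no independent evidence. KRT8 had at least 2.20 CPM in each subcutaneous control library. The part of the mesothelial markers in the IGFBP2 difference was not tested.

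IGFBP3, the main carrier of IGF in blood, was lower in visceral fat. Subcutaneous controls had 268, 440, 247 and 582 CPM and visceral controls 171, 142, 165 and 262 CPM, with visceral 928 above the lowest subcutaneous library. On the log2 scale IGFBP3 differed by -1.05 ± 0.29 (adjusted p = 0.0356, edgeR). The 3 pairs did not share a direction (-0.65, -1.41 and 0.09), and the fixed block gave -0.65 (adjusted p = 0.0848, edgeR). The call was also lost in the voom fit with the replicate block (-0.94, adjusted p = 0.116) and without visceral 902, 908 or 924 or subcutaneous 924 or 931 (-1.01 to -0.76). Without subcutaneous controls 902 and 924 together it was -1.17 (adjusted p = 0.0654, edgeR), whereas IGF1R (-0.69) and IGFBP4 (1.27) kept their calls.

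Some markers of several cell types also differed between depots, where 13.3% of all genes were called in control ewes and 9.07% in BPA ewes. PDGFRB and CD34, 2 of 9 progenitor and stromal markers, were lower in visceral fat of both treatment groups, and the summed CPM of that list was 1602 to 2201 in subcutaneous and 1207 to 1503 in visceral controls. In BPA ewes 5 of the 9 estimates were lower in visceral fat and 4 were higher, and the sums overlapped (1165 to 2040 subcutaneous, 1012 to 1206 visceral). ADIPOQ and LPL, 2 of 10 adipocyte markers, and KDR and ERG, 2 of 10 endothelial markers, were higher in visceral control fat. SYNPO2, 1 of 7 smooth muscle markers, and MRC1, 1 of 7 macrophage markers, were higher there too. The skeletal muscle marker TNNT3 was lower. In BPA ewes no adipocyte marker passed, and 3 of the 10 estimates were lower in visceral fat (median log2 difference 0.04). The part of these markers in the IGF1R, IGFBP3 and IGFBP4 differences was not tested.

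The other binding proteins of control ewes did not pass. IGFBP5, the most abundant one, was measured at 1381, 1530, 1851 and 3580 CPM in subcutaneous and at 1595, 1869, 1879 and 1231 CPM in visceral fat (log2 difference -0.34 ± 0.29, interval -0.97 to 0.29). Its highest and lowest values were subcutaneous 931 and visceral 928. IGFBP6, which prefers IGF2 as its ligand, differed by -0.08 ± 0.19 and IGFBP7, a low-affinity relative found around blood vessels, by 0.08 ± 0.21 on the log2 scale.

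The same depot comparison in ewes exposed to BPA gave 3 calls among the 9 genes that could be tested (33.3%), against 9.07% of all 13782 genes (5.13% higher, 3.94% lower). IGF1, IGFBP4 and IGFBP7 were higher in visceral fat, 2.78-fold, 2.59-fold and 1.62-fold. Groups did not overlap for these 3 and for IGF1R (44.4% of the 9 genes, 18.6% of all genes). The same 3 genes passed after thinning to the lowest total. The median log2 difference was 0.69 for the 9 genes and 0.02 for all genes.

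IGF1 was measured at 32.2, 12.9, 35.8 and 30.3 CPM in subcutaneous BPA and at 59.4, 68.0, 95.0 and 87.1 CPM in visceral BPA fat. The lowest visceral value exceeded the highest subcutaneous one. IGF1 differed by 1.48 ± 0.29 on the log2 scale (adjusted p = 0.0149, edgeR), and the call held in each of the 8 omissions of 1 library. IGF2 had 88.5, 134, 89.9 and 211 CPM in subcutaneous and 191, 186, 273 and 207 CPM in visceral BPA fat, overlapping through subcutaneous 977. Its difference of 0.71 ± 0.27 did not pass (adjusted p = 0.125, edgeR), but did without subcutaneous 977 (1.04, adjusted p = 0.0341, edgeR).

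IGF1R lay lower in all 4 visceral BPA libraries (180, 177, 213 and 172 CPM) than in any subcutaneous one (238, 257, 296 and 258 CPM). Its log2 difference of -0.50 ± 0.15 was close to the one of control ewes, and it did not pass here (adjusted p = 0.0577, edgeR). It passed without visceral 977 (-0.57, adjusted p = 0.0257, edgeR). IGF2R differed by 0.17 ± 0.21, with an interval from -0.29 to 0.63.

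IGFBP4 was the binding protein with the smallest p in this comparison. Subcutaneous BPA libraries had 87.1, 61.9, 72.5 and 79.6 CPM and visceral BPA libraries 241, 232, 161 and 149 CPM, with no overlap. The log2 difference was 1.38 ± 0.20 (adjusted p = 0.00492, edgeR), and it passed in each of the 8 omissions. IGFBP7 had 70.0, 52.7, 67.8 and 74.6 CPM in subcutaneous and 81.6, 117, 133 and 98.0 CPM in visceral fat, 0.69 ± 0.19 on the log2 scale (adjusted p = 0.0458, edgeR). The IGFBP7 call held only without visceral 910. Omission of any other library ended it, with differences from 0.57 to 0.76 and adjusted p from 0.0501 to 0.133 (edgeR).

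IGFBP2 had too few subcutaneous counts for the filter: 2, 1, 0 and 5 counts in subcutaneous BPA against 46, 31, 493 and 22 in visceral BPA. All 4 visceral libraries were above all 4 subcutaneous ones. An exact two-sided permutation test of the CPM gave an unadjusted p = 0.0286, the smallest that 4 against 4 allows, which only restates the lack of overlap. The log2 difference was 5.43 without the filter (adjusted p = 0.0181, edgeR) and 5.45 in the 16-library fit (adjusted p = 0.00699, edgeR). In limma voom it was 4.26 with the replicate block (adjusted p = 0.155) and 3.63 without it (adjusted p = 0.251). The comparison rests on 8 subcutaneous counts. IGFBP3 (0.08 ± 0.45), IGFBP5 (0.11 ± 0.24) and IGFBP6 (1.02 ± 0.36, adjusted p = 0.102, edgeR) did not pass. IGFBP6 was low in subcutaneous 922 (10.2 CPM) and had 58.3 CPM in visceral 984.

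Macrophage markers moved with depot in BPA ewes. CD68 (1.21 ± 0.18), CD14 (0.95 ± 0.22) and TYROBP (1.57 ± 0.32) were higher in visceral BPA fat, 3 of 7 markers against 9.07% of all genes. The estimates of all 7 macrophage markers were above 0. Their summed CPM was 315 to 509 in subcutaneous and 519 to 1164 in visceral BPA fat, without overlap. SYNPO2, a smooth muscle gene (1.68 ± 0.32), and the endothelial KDR (0.93 ± 0.24) were also higher, as both were in control ewes. Their part in the IGF1, IGFBP4 and IGFBP7 differences was not tested.

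**Figure D3:**
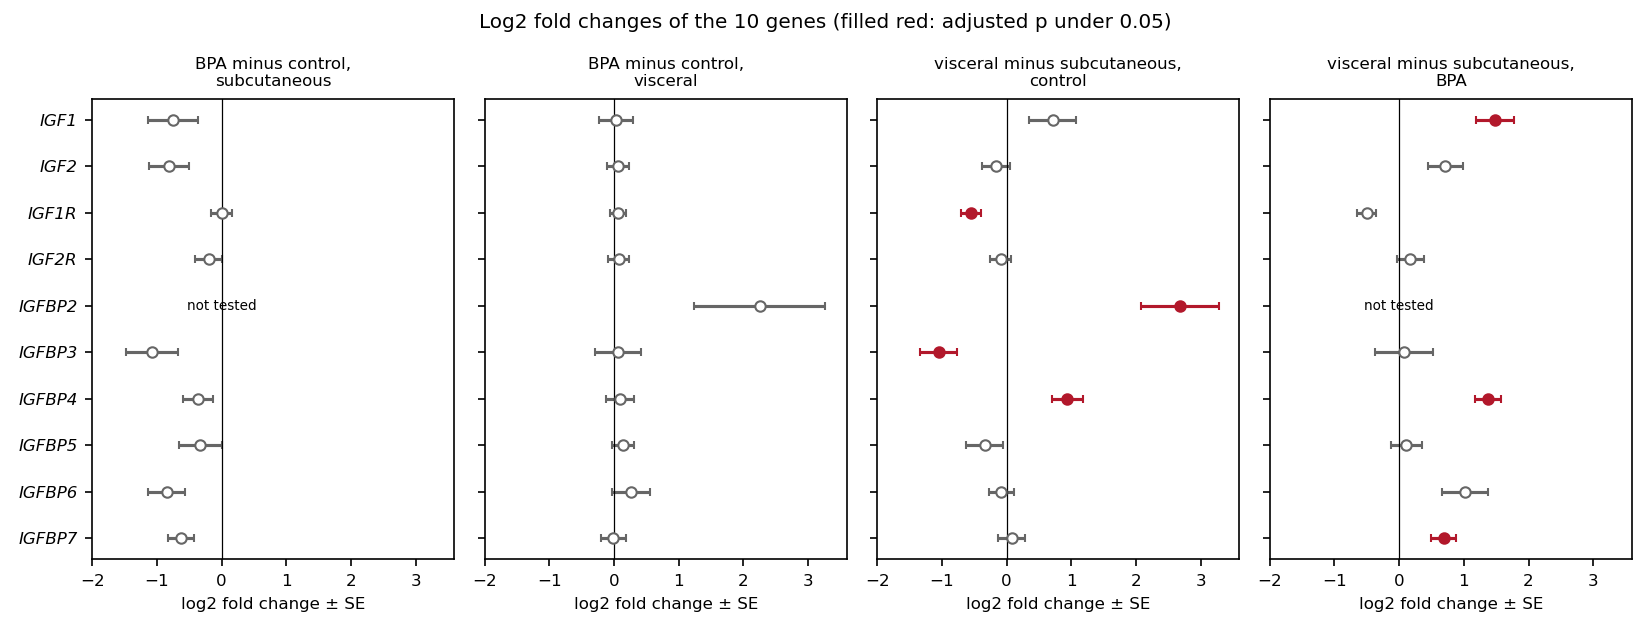
Log2 fold change with SE for the 10 genes in the 4 comparisons of 8 libraries; filled red points passed an adjusted p of 0.05 over all genes tested, and IGFBP2 was not tested where subcutaneous counts were too few. No gene passed in either BPA comparison, 4 passed between the depots of control ewes (IGFBP2 having met the count filter through visceral libraries) and 3 between those of BPA ewes.

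Effects of prenatal BPA were compared within each depot. In subcutaneous fat none of the 9 genes tested passed, against 0.709% of all 13535 genes (96 genes called by edgeR). The estimates of 8 of the 9 genes were below 0, with a median of -0.63 against -0.01 for all genes, of which 50.8% were below 0. In visceral fat 0 of 10 passed, as for all genes (0.00% of 14774 in edgeR, where 1103 had an unadjusted p under 0.05 and DESeq2 called 5). The median there was 0.07, against 0.00188 for all genes.

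Both ligands had lower subcutaneous means with BPA. IGF1 was 47.0 ± 25.0 CPM in control and 27.8 ± 10.2 in BPA fat (SD, n = 4), a log2 difference of -0.75 ± 0.39 (adjusted p = 0.414, edgeR) with an interval from -1.60 to 0.10. Control 931 held the highest value and BPA 922 the lowest, and without control 931 the difference was -0.36. IGF2 was lower by -0.81 ± 0.31 (adjusted p = 0.274, edgeR; interval -1.49 to -0.14), with the control values of 134 to 310 CPM overlapping the BPA values of 88.5 to 211 CPM.

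The receptors differed less. IGF1R had a log2 difference of 0.00415 ± 0.16, with an interval from -0.34 to 0.35. IGF2R had one of -0.20 ± 0.21, from -0.66 to 0.26, and its BPA libraries fell into low values in 918 and 941 (164 and 192 CPM) and high ones in 922 and 977 (312 and 274 CPM).

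Among binding proteins, IGFBP7 was the one whose subcutaneous groups did not overlap, 1 of 9 genes (11.1%) against 7.45% of all genes. Controls had 146, 93.7, 95.3 and 77.1 CPM and BPA libraries 70.0, 52.7, 67.8 and 74.6 CPM, so that control 931 and BPA 977 nearly met. The log2 difference of -0.63 ± 0.20 did not pass (adjusted p = 0.197, edgeR; interval -1.07 to -0.20). Without controls 902 and 924 it was -0.37 (adjusted p = 0.466, edgeR).

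IGFBP3 had the largest difference of the 9, -1.07 ± 0.40 (adjusted p = 0.271, edgeR; interval -1.95 to -0.19). Control values were 268, 440, 247 and 582 CPM and BPA values 206, 64.2, 180 and 280 CPM, overlapping through BPA 977. IGFBP6 differed by -0.85 ± 0.29 (adjusted p = 0.228, edgeR), with 49.6, 27.9, 26.1 and 34.2 CPM in control and 18.6, 10.2, 26.4 and 21.6 CPM in BPA fat. IGFBP4 (-0.36 ± 0.23) and IGFBP5 (-0.33 ± 0.33) also did not pass. Without control 931 the IGFBP5 difference was 0.07, and without controls 902 and 924 that of IGFBP4 was -0.00479.

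Library BPA 922 had the lowest subcutaneous BPA value of IGF1, IGFBP3, IGFBP4, IGFBP5, IGFBP6 and IGFBP7. Cell type markers also moved between these groups. The summed CPM of 7 macrophage markers was 593 to 816 in subcutaneous control and 315 to 509 in subcutaneous BPA fat, without overlap, and TYROBP of that list fell. The sum of 9 progenitor and stromal markers was 1602 to 2201 in control and 1165 to 2040 in BPA fat, and THY1 fell. Of the 9 estimates 8 were lower with BPA and 1 was higher, with a median log2 difference of -0.73. The sum of 8 skeletal muscle markers was 29.2 to 72.8 in control and 43.5, 325, 122 and 372 in BPA fat. In library 922 that sum was nearly all TNNT3 (321 CPM), with MYH1 at 1.58, CKM at 0.226, and MB and MYL1 at 0 CPM. Library 977 had TNNT3 at 127 and MYH1 at 126 CPM. LMOD1, a smooth muscle gene, rose (1.30 ± 0.25, adjusted p = 0.043, edgeR). Their part in the values of the IGF genes was not tested.

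In visceral fat the log2 differences between BPA and control were 0.03 ± 0.26 for IGF1, 0.06 ± 0.17 for IGF2, 0.06 ± 0.13 for IGF1R and 0.07 ± 0.16 for IGF2R. The intervals of these 4 genes lay between -0.55 and 0.60. IGFBP3 (0.06 ± 0.36), IGFBP4 (0.09 ± 0.22), IGFBP5 (0.13 ± 0.17), IGFBP6 (0.26 ± 0.29) and IGFBP7 (-0.01 ± 0.20) had intervals between -0.73 and 0.90. None of the 10 genes had groups without overlap, against 4.02% of all genes.

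IGFBP2 was the exception in size. Visceral controls had 3.21, 4.83, 3.80 and 5.62 CPM and visceral BPA libraries 5.14, 3.54, 74.0 and 1.66 CPM. Library 977 was far above the controls, libraries 910 and 918 lay within their range, and library 984 lay below it. The log2 difference was 2.25 ± 1.01 (adjusted p = 0.658, edgeR) and -0.37 without 977. That library was also the highest in the mesothelial markers (352 summed CPM, the other visceral libraries 31.7 to 133). Among visceral libraries it was highest in the lymphocyte (204) and skeletal muscle sums (75.6) too, and lowest in the adipocyte sum (18711). Its skeletal muscle sum was nearly all TNNT3 (75.5 CPM), with MYH1, CKM, MB and MYL1 at 0 CPM. Its lymphocyte sum was mostly PTPRC (163 CPM). In visceral controls, library 928 had the most IGFBP2 and the lowest mesothelial sum (60.7). Library 902 had the least IGFBP2 and the highest mesothelial sum (133). The part of these markers in the IGFBP2 level of library 977 was not tested.

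**Figure D4:**
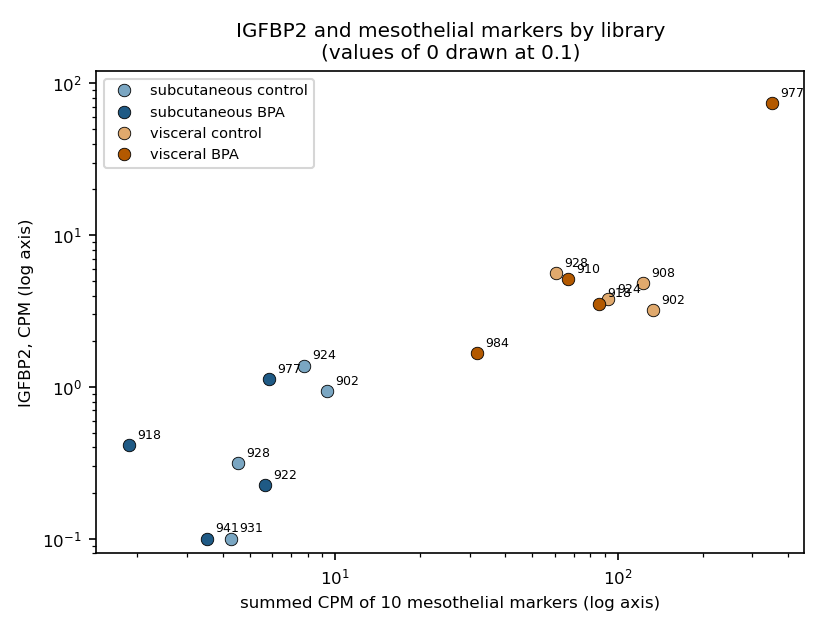
IGFBP2 in CPM against the summed CPM of 10 mesothelial markers in each of the 16 libraries, both on log axes, with values of 0 drawn at 0.1 and library numbers beside the points. Subcutaneous libraries lie at the lower left, visceral ones further up and to the right, and visceral BPA library 977 has the highest value on both axes. Among visceral controls, library 928 has the most IGFBP2 and the lowest mesothelial sum.

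Whether the BPA effect differed between depots was tested with an interaction term over all 16 libraries. None of the 10 genes passed, and 0 of 14793 genes did (0.00%, edgeR; 917 had an unadjusted p under 0.05, and DESeq2 called 11). All 10 estimates, visceral BPA effect minus subcutaneous BPA effect, were above 0, from 0.05 for IGF1R to 2.78 for IGFBP2, with a median of 0.70 against 0.02 for all genes. They include 0.78 ± 0.50 for IGF1 (adjusted p = 0.92, edgeR), 1.13 ± 0.59 for IGFBP3 and 1.12 ± 0.44 for IGFBP6. IGFBP2 was at 0.18 without visceral BPA 977, and IGF1R ranged from -0.07 to 0.15 over the omissions of 1 library. The depot differences that passed in 1 treatment group and not in the other, those of IGF1, IGF1R, IGFBP3 and IGFBP7, were thus not shown to differ between the treatment groups.

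The carriers of the IGF ligands and the proteases that cut binding proteins were followed as a list of 11 genes, of which 10 are in the table. Between the depots of control ewes 8 could be tested: 1 was higher in visceral fat, 3 were lower and 4 did not pass. PAPPA2 and STC2, 2 of the 3 lower ones, met the count filter through subcutaneous libraries, so their difference was built into their entry. Of the other 6 genes 2 passed (33.3%), against 13.3% of all genes. PAPPA, the protease that cuts IGFBP4 and frees IGF, was the higher one, at 10.1, 12.8, 10.7 and 11.2 CPM in visceral against 2.65, 5.52, 4.40 and 5.33 CPM in subcutaneous controls. Its log2 difference was 1.33 ± 0.26 (adjusted p = 0.00914, edgeR), with no overlap. Thus IGFBP4 and its protease were both higher in visceral fat.

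PAPPA2, which cuts IGFBP3 and IGFBP5, went the other way. It had 6.40, 10.2, 12.9 and 2.25 CPM in subcutaneous and 0.535, 0.853, 0.777 and 0.652 CPM in visceral controls, a log2 difference of -3.47 ± 0.51 (adjusted p = 0.00223, edgeR). STC2, stanniocalcin 2, an inhibitor of PAPPA, was measured at 7.64, 10.3, 14.1 and 16.8 CPM in subcutaneous and at 1.25, 0.379, 0.950 and 0 CPM in visceral controls (-4.22 ± 0.63, adjusted p = 0.00236, edgeR). Both genes were low in all visceral controls and their groups did not overlap. HTRA1, a secreted serine protease, was lower by -0.84 ± 0.25 (adjusted p = 0.0474, edgeR), with overlapping groups. The HTRA1 call was lost with the fixed block (-0.53, adjusted p = 0.132, edgeR) and without visceral 902, 908 or 928 or subcutaneous 902, 928 or 931 (-0.92 to -0.60).

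In BPA ewes PAPPA was again higher in visceral fat (14.9 to 26.6 against 4.07 to 11.2 CPM; log2 difference 1.30 ± 0.32, adjusted p = 0.034, edgeR) and PAPPA2 lower (1.06 ± 0.382 against 4.36 ± 2.45 CPM, SD, n = 4; -2.03 ± 0.53, adjusted p = 0.0399, edgeR). Neither group pair overlapped. PAPPA2 lost its call with the fixed block (-1.58, adjusted p = 0.251, edgeR). That block rests here on numbers 918 and 977, which were treated as sharing only a number. The call was also lost in voom with the replicate block (-1.86, adjusted p = 0.0574) and without the filter (-2.01, adjusted p = 0.0518, edgeR). Omission of 1 library ended it except for visceral 977. PAPPA2 and STC2 had again met the filter through subcutaneous libraries. Of the other 6 genes tested 1 passed (16.7%), against 9.07% of all genes. The PAPPA call ended without visceral 910 or 918 or subcutaneous 918, 922 or 977 (1.09 to 1.39). STC2 had the same order without overlap (-2.95 ± 0.89, adjusted p = 0.0626, edgeR).

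**Figure D5:**
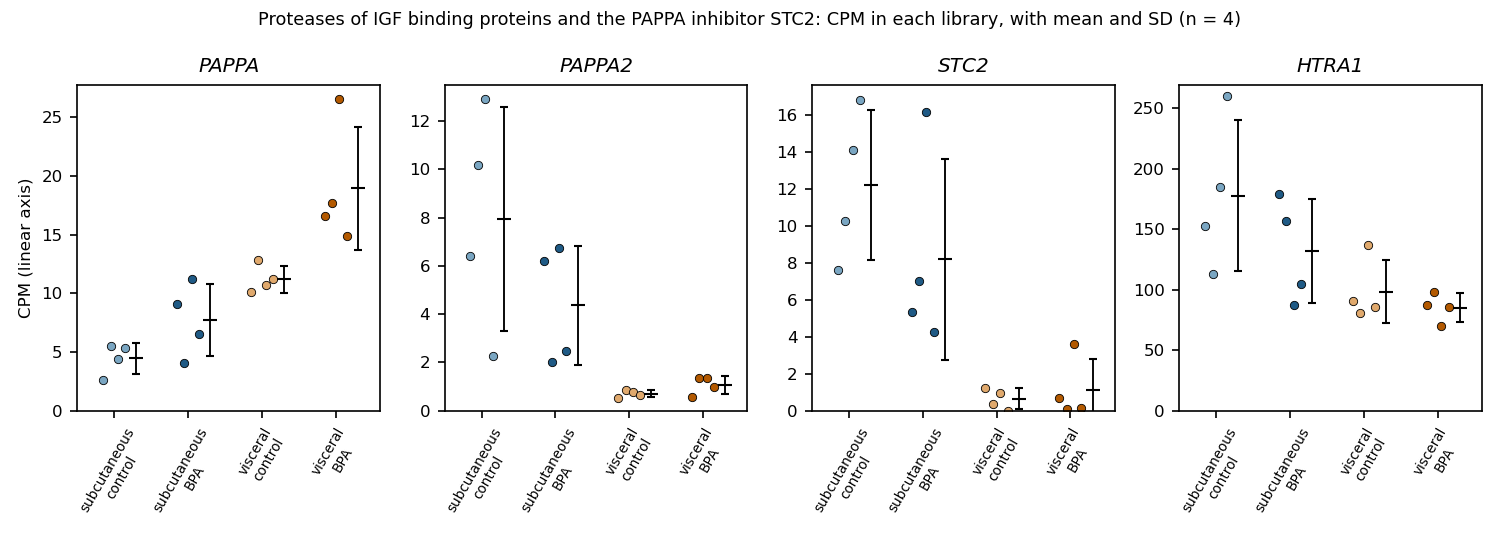
CPM of PAPPA, PAPPA2, STC2 and HTRA1 in each library (points, linear axes from 0) with the mean and SD of the 4 libraries of a group; the lower SD bar of STC2 in visceral BPA is cut at the axis. PAPPA was higher in every visceral control library (10.1 to 12.8 CPM) than in any subcutaneous control library (2.65 to 5.52 CPM), and PAPPA2 and STC2 had the opposite order.

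No gene of that list passed in a BPA comparison. PAPPA had the smallest p in visceral fat, with 16.6, 17.7, 26.6 and 14.9 CPM in BPA libraries, each above the highest control of 12.8 CPM, and a log2 difference of 0.76 ± 0.22 (adjusted p = 0.658, edgeR; interval 0.26 to 1.25). In subcutaneous fat its difference was 0.78 ± 0.37 (adjusted p = 0.364, edgeR). ADAM12, another protease of binding proteins, had the smallest p in subcutaneous fat (0.26 ± 0.12, adjusted p = 0.34, edgeR).

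Of 8 genes of the growth hormone axis 7 are in the table and were tested. SOCS3, a feedback inhibitor of cytokine and growth hormone signalling, was lower in visceral than in subcutaneous control fat (7.90 ± 1.66 against 15.8 ± 2.97 CPM, SD, n = 4; 95% interval of the log2 difference -1.49 to -0.51, adjusted p = 0.0162, edgeR). It was the 1 call of the 7 genes (14.3%, against 13.3% of all genes). The SOCS3 call was lost without subcutaneous controls 902 and 924 (-0.86, adjusted p = 0.0908, edgeR). No member passed between the depots of BPA ewes, where SOCS3 differed by 0.42 ± 0.39, or in a BPA comparison. The receptor GHR, which drives IGF1 transcription, differed by 0.55 ± 0.19 between the depots of control ewes (adjusted p = 0.0865, edgeR) and by 0.54 ± 0.24 in BPA ewes (adjusted p = 0.176, edgeR). SOCS3 and STAT5A had the smallest p of the list for BPA, in visceral (1.03 ± 0.40) and subcutaneous fat (0.32 ± 0.15), and the SOCS3 value was 0.50 without visceral BPA 977.

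Downstream of the receptors, 23 of 24 signalling genes were tested. In control ewes 3 were higher in visceral fat, 1 was lower and 19 did not pass, a share of 17.4% against 13.3% of all genes. EIF4EBP1, the translation inhibitor that mTOR phosphorylates, had the largest difference, at 137, 199, 102 and 110 CPM in visceral against 32.9, 19.7, 25.9 and 83.2 CPM in subcutaneous controls (1.78 ± 0.40, adjusted p = 0.0165, edgeR). It passed in BPA ewes as well (155 ± 52.3 against 45.3 ± 8.38 CPM, SD, n = 4; 1.77 ± 0.26, adjusted p = 0.00497, edgeR), as the only one of the 23 (4.35%, against 9.07% of all genes). Without subcutaneous controls 902 and 924 its difference in control ewes was 1.33 (adjusted p = 0.103, edgeR).

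The kinase genes AKT2 (0.70 ± 0.19) and PIK3CB (0.50 ± 0.14) were higher and the adaptor GRB2 (-0.52 ± 0.14) lower in visceral control fat, with adjusted p of 0.0339, 0.0367 and 0.0337 (edgeR). GRB2 and PIK3CB lost their calls with the fixed block (-0.50 and 0.37; adjusted p = 0.0656 and 0.0836, edgeR). All 3 calls were lost without subcutaneous controls 902 and 924 together (AKT2 0.39, PIK3CB 0.47, GRB2 -0.61). Single omissions that ended a call were visceral 902, 908 or 928 or subcutaneous 902 or 924 for AKT2 (0.57 to 0.72), any but visceral 924 for PIK3CB (0.40 to 0.55), and visceral 902, 908 or 928 or subcutaneous 902, 928 or 931 for GRB2 (-0.53 to -0.45). INSR, the insulin receptor, differed by 0.41 ± 0.16 in control ewes (adjusted p = 0.125, edgeR). For BPA no signalling gene passed: TSC2, a brake on mTOR, had the smallest p in subcutaneous fat (0.55 ± 0.15, adjusted p = 0.139, edgeR) and AKT1 in visceral fat (0.41 ± 0.15).

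Of 10 genes for RNA-binding proteins of IGF2 and imprinted growth genes, 8 are in the table. H19 and MEG3 were not analysed here. CDKN1C, an imprinted cell cycle inhibitor, was higher in visceral control fat (559 ± 87.0 against 299 ± 94.7 CPM, SD, n = 4; log2 difference 0.91 ± 0.22, adjusted p = 0.0236, edgeR). It was the 1 call of 5 genes tested there (20.0%, against 13.3% of all genes). That call was lost without visceral 902, 924 or 928 or subcutaneous 924 (0.84 to 0.95), and without subcutaneous controls 902 and 924 together (0.95, adjusted p = 0.0788, edgeR). MEST, imprinted and linked to fat expansion, had 26, 38, 55 and 32 counts in visceral against 0, 0, 3 and 3 counts in subcutaneous BPA fat. It met the count filter through visceral libraries alone, so its adjusted p of 0.027 (edgeR) is a description (0.0214 without the filter). The threshold was missed without visceral 918 or any 1 of the 4 subcutaneous libraries (adjusted p from 0.05 to 0.0836, edgeR). In BPA comparisons 0 genes of the list passed, with the smallest p for PLAGL1 in subcutaneous (-0.10 ± 0.16) and PEG3 in visceral fat (0.66 ± 0.22).

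Variation among the 10 genes within groups was described by Pearson correlation of log2 CPM over 16 libraries, after the mean of each group was subtracted. The libraries share depth and tissue makeup, so these values are given as a description. IGF2 and IGF2R had the highest value of all member pairs (r = 0.70), then IGF1 and IGFBP5 (0.66) and IGF1 and IGF1R (0.58). IGF1 and IGF2R had the lowest (-0.52).

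Among 14793 genes, those most like IGF1 were LOC105615848 (r = 0.89), SOX12 (0.82) and HDHD3 (0.80), and those most like IGF2 were SRSF9 (0.86), CDK4 (0.86) and MKRN1 (0.85). IGF1R was most like PAX1 (0.88) and WDR17 (0.87), and IGF2R most like DOK4 (0.82) and HSF1 (0.82). The genes most like IGFBP2 were PTGIR (0.94), MAPK8IP1 (0.91) and VASH1 (0.90), and here library 977 carries most of the spread. IGFBP3 was most like PEX11G (0.91), IGFBP4 most like PALD1 (0.95), IGFBP5 most like RASL11B (0.85), IGFBP6 most like LOC101112822 (0.90) and IGFBP7 most like KANK4 (0.88). No member was among the 3 genes most like another.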

How the data were processed

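The authors deposited 1 table with a read count per gene for 16 libraries. The submitters' processing notes name FastQC 0.11.5, MultiQC 0.9, the aligner STAR 2.6.0c and the counter featureCounts in Subread 1.6.1. Nothing in the sources used here names the genome build, annotation release or strand setting. Although the table is called normalized, it holds 0 values that are not whole and its totals differ (3046126 to 14305764), and it was therefore analysed as raw counts. The labels' protocols give ribosomal RNA depletion and a low-input library kit.

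Genes passing filterByExpr (10 counts at the median depth, 15 in total) were scaled with TMM and tested with the two-sided quasi-likelihood test of edgeR 4.0.16 in R 4.3.3, on the 8 libraries of each comparison, or all 16 for the interaction. P-values were adjusted by Benjamini-Hochberg over all genes tested, and an adjusted p under 0.05 was called. CPM use TMM-scaled totals of all 16 libraries, and exon lengths are those deposited by the authors. A non-member was named if called (at most 4 per list and comparison, smallest p first), otherwise at most the 2 smallest p of a list. GHR and INSR in control ewes and STC2 in BPA ewes were also named, outside this rule.

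Members and lists were chosen with earlier results of these data known. Scripts were tested on simulated data. The labels do not say that replicates are separate animals, so p-values measure the spread between these samples. Deviations of same-numbered libraries from their group means correlated at 0.287, 0.400 and 0.332 in controls (902, 924, 928), each the best match, and these were taken as pairs. The values for BPA numbers 918 and 977 were 0.167 and 0.0313, in both directions the best match for 918 and in neither for 977. With only 2 such numbers, and 1 of them under 0.1, these were treated as sharing only a number. A fixed block in BPA ewes rests on these 2 numbers alone. Alternatives were DESeq2 1.42.0, its size factors, no filter, all 16 libraries in 1 fit, limma 3.58.1 voom with and without the number as a block (consensus correlation 0.235), the number as a fixed block and omission of each library. Omission of subcutaneous controls 902 and 924 together and thinning to the lowest total were chosen after seeing the data.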

Additional observations from a re-analysis of the deposited data

Results flagged for a closer look

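Of 40 sets of 4 libraries (10 genes in 4 groups), 1 held a library far from the others, where chance gives about 1 in 20. IGF1 was measured at 12.9 CPM in subcutaneous BPA library 922, while the other 3 libraries of that group lay between 30.3 and 35.8 CPM. On the log2 scale (CPM plus 0.5), on which this was judged, the gap was 0.836 of the range of the group. Library 922 was also at the end of the third principal component (-42.3).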

How the results depend on the processing

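Of the log2 fold changes recomputed under each alternative, 1030 kept direction and side of the threshold, 102 kept direction only and lost the call, 11 gained one and 49 reversed; the cause was not tested. For BPA in subcutaneous fat, the 96 genes called became 464 with DESeq2, 173 without a filter, 46 in 1 fit of 16 libraries, 1 in voom with the replicate block and 1 without it, 0 without controls 902 and 924, and 32 to 128 over omissions of 1 library. No member passed under any of these. DESeq2 called 5 genes for BPA in visceral fat and 11 for the interaction, where edgeR called 0. Between the depots of control ewes, 1928 genes became 1138 without controls 902 and 924 and 1043 to 1755 over omissions, and the 4 members became 2 (IGF1R and IGFBP4) in the 16-library fit and in voom with and without the block, and 1 to 4 over omissions. Between the depots of BPA ewes, 1250 genes (707 higher, 543 lower) became 2197 with DESeq2, 2408 in the 16-library fit, 2300 in voom with the replicate block (1047 higher, 1253 lower), 1971 without it, and 369 (without subcutaneous 922) to 2206 (without visceral 977) over omissions. The 3 members became 5 with DESeq2, 6 in the 16-library fit and 5 in voom with the block. The replicate block changed no other call of a gene named in the report beyond those given there, except that IGF2 (0.78, adjusted p = 0.0364) and IGF1R (-0.48, adjusted p = 0.0174) passed between the depots of BPA ewes in limma voom.

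No reversed value was called. BPA in subcutaneous fat: IGF1R -0.00188 with DESeq2, -0.0019 with its size factors, -0.01 without a filter, -0.00078 in the 16-library fit, -0.12 without controls 902 and 924 and -0.03 thinned; over omissions IGF1R -0.09 to 0.13 and IGFBP5 -0.48 to 0.07. BPA in visceral fat: IGF1 -0.00262 without a filter and -0.04 thinned, IGFBP3 -0.18 in voom with the block and -0.06 without it, IGFBP7 0.04 thinned. Over omissions there, IGF1 ranged from -0.12 to 0.34, IGF2 -0.08 to 0.14, IGF1R -0.03 to 0.09, IGF2R -0.01 to 0.18, IGFBP2 -0.37 to 2.64, IGFBP3 -0.33 to 0.32, IGFBP4 -0.06 to 0.19, IGFBP6 -0.01 to 0.46 and IGFBP7 -0.14 to 0.12. Depots of control ewes: IGFBP6 0.10 without controls 902 and 924; over omissions IGF2 -0.35 to 0.01, IGFBP5 -0.50 to 0.06, IGFBP6 -0.19 to 0.15 and IGFBP7 -0.06 to 0.29. Depots of BPA ewes: with the fixed block IGFBP3 -0.40 and IGFBP5 -0.14; over omissions IGFBP3 -0.32 to 0.36 and IGFBP5 -0.07 to 0.27. The interaction of IGF1R ranged from -0.07 to 0.15. Thinning ended the calls of HTRA1, GRB2 and PIK3CB in control ewes and of PAPPA in BPA ewes (1.12, adjusted p = 0.0742, edgeR). Depth limits IGFBP2 most, with 0 to 8 counts per subcutaneous library.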

Other observations

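IGF2BP3, an RNA-binding protein of IGF2 mRNA that is mostly fetal, was not tested in any comparison for lack of counts. It had 51 counts in visceral BPA library 977 and 0 to 6 in the other 7 visceral libraries; it was singled out after its values were seen.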
